A study of Mus musculus with 24 samples.

Results

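Small nucleolar RNAs (snoRNAs) are short, stable, nuclear RNAs that guide the chemical modification of other RNAs, chiefly of ribosomal RNA. Box C/D snoRNAs carry the C box near the 5′ end and the D box near the 3′ end and guide 2′-O-methylation, while box H/ACA snoRNAs fold into hairpins, end in an ACA tail and guide pseudouridylation. Most mouse snoRNAs are cut out of introns of host genes, a few (U3, U8 and U13) are made from promoters of their own, and the related scaRNAs act in Cajal bodies on spliceosomal RNAs. The members described here are the 1458 genes that the GENCODE M1 annotation of mm9 calls snoRNA on autosomes, out of 1552 such genes in all, with 94 on the X chromosome left out. They range from 50 to 414 bp with a median of 128 bp. By the length limit used here, 477 genes were under 110 bp, the size of most C/D snoRNAs, 970 were over 110 bp, the size of most H/ACA snoRNAs, and 11 of exactly 110 bp were put in neither class.

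RNA came from CCE mouse embryonic stem cells (129/SvEv) that had been differentiated with 0.266 µM retinoic acid for 5 days without LIF, and from heads of wildtype FVB/N fetuses (FH) at 14.5 dpc, which are mostly brain. RiboMinus RNA gave 7 cDNA preparations of 36-nt tags, from 4 CCE preparations (2 by RNA-hydrolysis, 2 by cDNA-shearing) and 3 FH preparations (2 by RNA-hydrolysis, 1 by cDNA-shearing), each sequenced at Vienna-IMP and at Nijmegen, and 1 of the hydrolysed FH preparations went through 2 rounds of depletion. Ribo-Zero gave 1 hydrolysed library of 51-nt tags per tissue, from other RNA, sequenced at Vienna-CeMM. The CCE preparations are technical replicates and no separate animals are stated for FH, so that p values measure the spread between preparations. The depleted RNAs CCE1, CCE2 and FH1 each gave a hydrolysed and a sheared preparation. Unless a block is named, the tests by tissue and by fragmentation treat these as independent. RiboMinus libraries held 920424 to 2473448 unique tags outside the mitochondrial chromosome, and the Ribo-Zero libraries held 26345467 (CCE) and 46226046 (FH). Marker genes of the labelled tissues were read first: Gata6, a primitive endoderm factor, was at 25.0 to 59.0 RPKM (tags per kb of exon per 1000000 tags) in CCE and 0.422 to 1.99 in FH, while Dcx of migrating neurons was at 0 to 0.0939 in CCE and 18.2 to 37.2 in FH. Since these are bulk samples, fewer cells of a type and less RNA per cell cannot be told apart.

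Most annotated genes held no unique tag. Of the 1458 genes, 126 had no position that a 36-nt tag can reach uniquely and 112 none for a 51-nt tag. At least 1 tag midpoint fell in 392 genes in RiboMinus and in 594 in Ribo-Zero, and 850 genes had none in any library, among them 738 that 51-nt tags could reach. The annotation holds 578 copies named SNORA17, of which 106 had any tag and 2 reached 20 Ribo-Zero tags. At least 20 tags were found in 117 genes in RiboMinus and in 304 in Ribo-Zero. A few genes held nearly everything, 34 genes with 90% of the 53857 RiboMinus tags and 74 genes with 90% of the 998745 Ribo-Zero tags. Of the 304 genes with 20 Ribo-Zero tags, 270 lay in an intron of a coding or long non-coding gene, 257 of them on the strand of the host, whereas 614 of all 1458 lay in such an intron and 416 on its strand. The libraries carry no strand of the RNA, so a snoRNA and its host cannot be told apart by strand.

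The sequence classes followed length in part. The letters TGATGA in the first 25 bases together with CTGA in the last 25, on the strand of the gene, were found in 262 of 477 genes under 110 bp (54.9%) and in 13 of 970 over it (1.34%). Neither length class had this pair in windows of the same length directly upstream, where the count was 0. The letters ACA in the last 8 bases were found in 62.4% of the genes over 110 bp, against 11.4% of their upstream windows, and in 15.7% of those under it, against 6.50% upstream. Among genes with 20 Ribo-Zero tags these shares were 64.6% for the C and D letters under 110 bp and 80% for ACA over it. Both patterns can occur in 1 gene, and a gene without the letters may have a variant of the box. The genes below are printed from the mm9 sequence, 5′ to 3′, because the comparisons that follow turn on them, with the matched C and D letters or the ACA in capitals.
snoZ40 (chr9:15119966-15120039, + strand, intron of Taf1d), with 253 tags in hydrolysed and 11 in sheared preparations: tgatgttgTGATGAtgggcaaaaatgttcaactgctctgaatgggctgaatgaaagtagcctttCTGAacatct
Snord14e (chr9:40612831-40612920, + strand, in Hspa8 and overlapping an annotated Hspa8 exon), a U14 gene with 33 RiboMinus tags in CCE and 3 in FH: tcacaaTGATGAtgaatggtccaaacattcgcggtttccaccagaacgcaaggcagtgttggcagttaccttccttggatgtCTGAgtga
SNORA1 (chr9:15119633-15119765, + strand, intron of Taf1d), with 39 RiboMinus tags in CCE and 5 in FH: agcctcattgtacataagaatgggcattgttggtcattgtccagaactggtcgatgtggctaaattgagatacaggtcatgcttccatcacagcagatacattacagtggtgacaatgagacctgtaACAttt
SNORA4 (chr16:23111690-23111828, + strand, in Eif4a2 and overlapping an annotated Eif4a2 exon), with 12 RiboMinus tags: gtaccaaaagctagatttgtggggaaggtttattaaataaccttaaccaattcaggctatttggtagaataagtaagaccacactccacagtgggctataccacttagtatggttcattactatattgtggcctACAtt
SCARNA21 (chr11:69164020-69164163, − strand, intron of Chd3), higher in FH: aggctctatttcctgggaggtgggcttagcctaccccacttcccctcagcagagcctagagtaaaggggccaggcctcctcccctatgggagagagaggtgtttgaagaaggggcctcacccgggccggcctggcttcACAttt
U3 (chr10:39978273-39978484, + strand, outside every coding and long non-coding gene), the member with the most Ribo-Zero tags, printed without capitals since the pair of C and D letters was not found in it: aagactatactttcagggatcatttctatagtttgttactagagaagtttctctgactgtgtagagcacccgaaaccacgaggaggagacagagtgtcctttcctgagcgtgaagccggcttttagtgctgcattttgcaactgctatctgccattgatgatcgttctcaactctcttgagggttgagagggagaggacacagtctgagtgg

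The snoRNA genes stood well above the sequence beside them. Tags per kb of uniquely reachable sequence were compared between the genes and their flanks of 200 bp on each side, leaving out flank positions in exons or in other short RNA genes. In RiboMinus the genes held 31.98 (CCE1 sheared) and 26.5 (CCE2 sheared) tags per kb against 2.05 and 1.57 in the flanks, and 84.1 (CCE1 hydrolysed) against 4.70. The excess was 17.9, 15.6, 15.6 and 16.8-fold in CCE1 hydrolysed, CCE2 hydrolysed, CCE1 sheared and CCE2 sheared, and 14.1, 16.7 and 23.6-fold in FH1 hydrolysed, FH2 hydrolysed and FH1 sheared. All 7 preparations were above 1, with a geometric mean of 16.98-fold (exact sign-flip test, two-sided, p = 0.0156, the smallest that 7 preparations can give). In Ribo-Zero the excess was larger, 102.8-fold in CCE and 56.3-fold in FH. Against the rest of the host intron, for the members that lie in one, the excess was 6.22 to 10.6-fold over the 7 preparations, with a geometric mean of 8.24 (exact sign-flip test, p = 0.0156), and 73.2-fold (CCE) and 45.2-fold (FH) in Ribo-Zero. With tags of 1 start and strand counted once the excess was 2.66 over the flanks and 2.10 over the host intron on the log2 scale, against 4.09 and 3.04 (exact sign-flip test, p = 0.0156 for each). Counted so, a gene holds at most 1 tag per position and strand, which lowers densely tagged members most. The excess over the flanks did not separate by tissue (FH over CCE 1.08-fold, exact permutation test, p = 0.743) or by fragmentation (hydrolysed over sheared 0.873-fold, p = 0.400). With tags of 1 start and strand counted once the difference by fragmentation was −0.62 on the log2 scale (exact permutation test, p = 0.0571, the smallest possible).

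The excess in RiboMinus sat mostly in long members. Genes over 110 bp were 25.0 to 39.99-fold above their flanks in the 7 preparations, while genes under 110 bp were 2.12 to 4.51-fold above theirs. The ratio of the shorter to the longer class was 0.102 (exact sign-flip test, p = 0.0156). In Ribo-Zero the shorter genes were 37.5-fold (CCE) and 11.3-fold (FH) above their flanks and the longer 170.3 and 95.7-fold. The order depended on the way the classes were drawn, since by name the Snord genes exceeded the Snora genes by 0.40 on the log2 scale (exact sign-flip test, p = 0.0312). Without the most tagged member of each class (Scarna2 in the longer class), the log2 ratio of the shorter to the longer class was −2.32. With tags of 1 start and strand counted once it was −1.87, against −3.29 in the main count (exact sign-flip test, p = 0.0156 for each). Most RiboMinus tags of the genes over 110 bp were in a few long ones. The mean of this class over the 7 preparations was 2094 CPM (tags per 1000000). The 32 genes over 200 bp were at 1715 and the 911 genes of 111 to 150 bp at 333. The excess of the genes of 111 to 150 bp alone was not tested. Scarna2 alone held 32.1 to 66.2% of RiboMinus snoRNA tags, and without it the excess of all members over their flanks was 7.71 to 12.2-fold. For comparison, miRNA genes were 5.13 to 6.80-fold above their flanks, less than snoRNA genes by 1.48 on the log2 scale (exact sign-flip test, p = 0.0156), but 95.2 to 97.5% of the RiboMinus tags in miRNA genes were in 1 gene, and without it their excess was 1.99 to 4.00-fold. Genes of spliceosomal snRNAs were at 0.647 to 2.07-fold in RiboMinus and at 45.3 and 23.4-fold in Ribo-Zero.

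**Figure D1:**
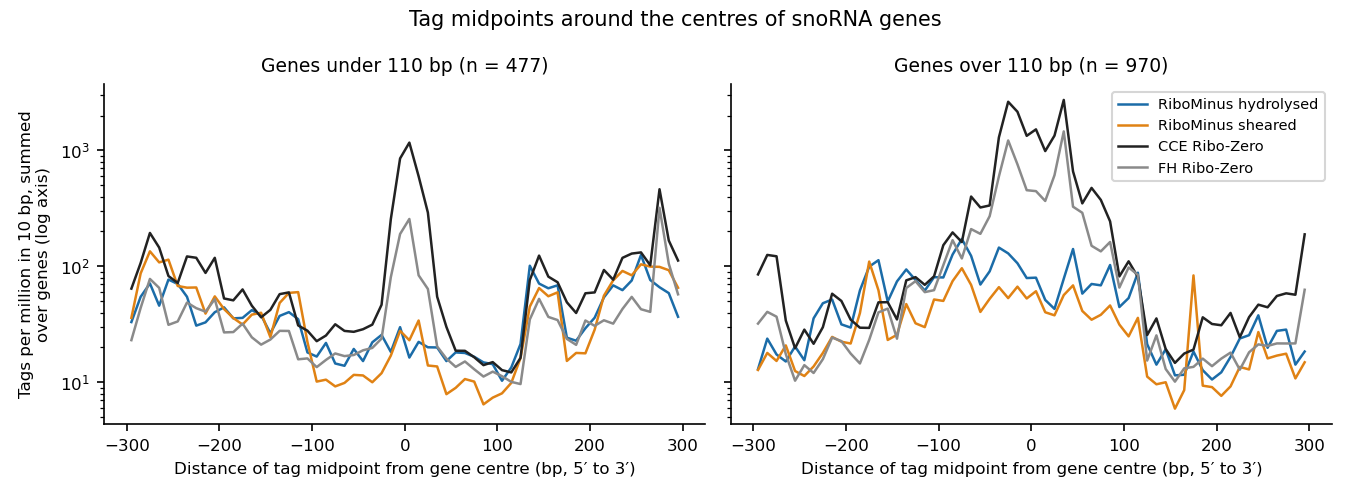
CPM (tags per 1000000) in 10 bp bins, summed over genes (log axis), against the distance of the tag midpoint from the gene centre in bp, for 477 genes under 110 bp (left) and 970 over it (right), with RiboMinus preparations pooled by fragmentation and 1 line per Ribo-Zero library; exons and other genes in the flanks are not removed here. In both Ribo-Zero libraries the genes over 110 bp are highest on both sides of the centre with a dip between. For the genes under 110 bp the bin at the centre is the highest in CCE Ribo-Zero (1168 CPM), while in FH Ribo-Zero it (256.5) is below a bin 270 bp away (319.9), and in RiboMinus the bins at the centre are below many in the surroundings.

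The first bases of tags were counted about the gene ends. Counting the first bases of tags that run into the gene, genes over 110 bp had 7.85 to 49.8 times as many in the 20 positions inside the 5′ end as in the 20 outside it (exact sign-flip test, p = 0.0156), and 8.33 to 19.04 times as many at the 3′ end (p = 0.0156). This window was set after the profile had been seen. Genes under 110 bp showed a smaller step in RiboMinus. At the 5′ end it was 0.865 to 1.19 in the 4 hydrolysed preparations and 2.94 to 3.6 in the 3 sheared ones, which do not overlap (exact permutation test, p = 0.0571, the smallest possible). At the 3′ end it was 1.02 to 1.51 and 1.94 to 4.70. In Ribo-Zero their step was 22.8 (CCE) and 10.9 (FH) at the 5′ end and 10.8 and 9.37 at the 3′ end. The ends differed in shape. At the 3′ end 12.9 to 39.8% of the tags in the 20 inside positions of the longer genes began within the first 5 bases in RiboMinus, and 30.2 (CCE) and 34.9% (FH) in Ribo-Zero. At the 5′ end the share was 2.66 to 4.84% and 2.49 and 1.78%, and the position with the most first bases in Ribo-Zero lay 13 (CCE) and 15 (FH) bases inside. A narrower measure, the share of gene tags that begin within 2 bases of either end, was 3.27 to 4.38% in hydrolysed and 1.73 to 3.24% in sheared preparations, which do not overlap; the exact permutation test gave p = 0.0571, the smallest that 4 against 3 allow. The difference of 1.27 percentage points was 0.40 at Vienna-IMP only (exact permutation test, p = 0.457), 2.54 at Nijmegen only (p = 0.0571) and 0.47 without members that overlap an exon (p = 0.343). The share at gene ends was below a value for the outer edges of the flanks, by 4.04 percentage points (exact sign-flip test, p = 0.0156). The call ended without Scarna2 (−1.63 points, exact sign-flip test, p = 0.438), with repeated positions counted once (−1.83, p = 0.0625) and at Nijmegen only (−2.52, p = 0.25). First bases at the flank edges were counted with exons and other short RNA genes left in, but divided by flank tags without them. The 2 values are thus not like shares, and no conclusion on gene ends is drawn from their difference.

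**Figure D2:**
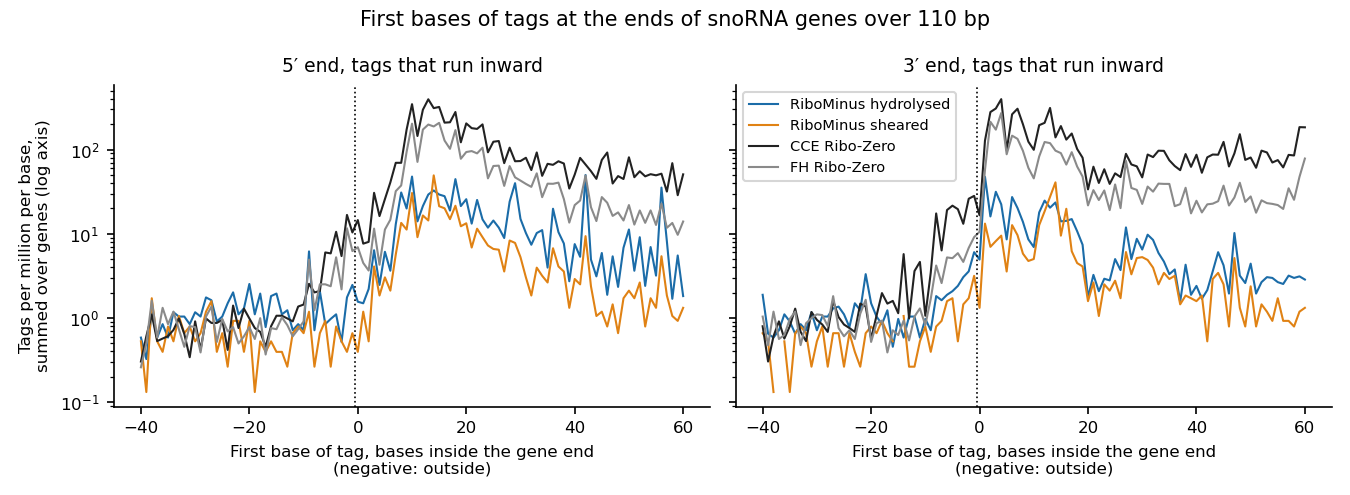
CPM per base, summed over the 970 genes over 110 bp (log axis), against the position of the first base of tags that run into the gene, at the 5′ end (left) and the 3′ end (right), with the gene end as a dotted line. In the Ribo-Zero libraries the most used first base lies 4 bases inside the 3′ end, and 13 (CCE) and 15 (FH) bases inside the 5′ end.

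Levels are given as CPM, tags in a gene per 1000000 tags of the library. Tags in snoRNA genes made up 1459 to 3141 CPM in RiboMinus. The CCE preparations were at 3141 and 2772 (hydrolysed) and 1597 and 1459 (sheared), and the FH preparations at 2239 and 2578 (hydrolysed) and 2019 (sheared). CCE and FH overlapped fully and did not differ beyond their spread (FH over CCE 1.07-fold, exact permutation test, p = 0.8). The 4 hydrolysed preparations were all above the 3 sheared ones, by 1.59-fold (exact permutation test, p = 0.0571, the smallest possible), and with tags of 1 start and strand counted once the difference was −0.03 on the log2 scale. Genes under 110 bp gave 150 to 204 CPM in CCE and 136 to 149 in FH, which do not overlap (exact permutation test, p = 0.0571; with adjustment for the 15 tests of length classes described next, 0.122). In Ribo-Zero the share was far higher, 21599.8 CPM in CCE and 9295 in FH, or 2.16 and 0.930% of all tags. For genes under 110 bp the Ribo-Zero values were 3296 and 734.

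The length of the gene also went with the sequencing location, a comparison made after the values had been seen. Genes of 111 to 150 bp were at 183 to 1145 CPM in the 7 Vienna-IMP libraries and at 66.3 to 145 in the 7 Nijmegen libraries of the same cDNAs, which do not overlap. The difference was 4.10-fold, with the Vienna-IMP library higher in 7 of 7 pairs (exact sign-flip test over pairs, p = 0.0156, the smallest possible; 0.0781 with adjustment for 15 tests of 5 length classes by tissue, fragmentation and location, which does not pass). It was 4.53-fold over the 4 hydrolysed pairs and 3.58-fold over the 3 sheared ones. Genes under 110 bp (1.47-fold) and all genes over 110 bp (1.33-fold) were also higher at Vienna-IMP in 7 of 7 pairs, with the same p values, and genes of 151 to 200 bp (2.82-fold) in 6 of 7. Genes over 200 bp were higher in 4 of 7 pairs (1.08-fold, exact sign-flip test, p = 0.391). The libraries of Vienna-IMP were cut from a wider range of fragment sizes than those of Nijmegen; the part of this in the difference was not tested. In Ribo-Zero the members of 111 to 150 bp reached 9839 (CCE) and 4386 (FH) CPM, 17.1 and 18.5-fold above the mean of the hydrolysed RiboMinus preparations of the tissue. The same ratio was 16.2 and 5.38-fold for genes under 110 bp, 15.2 and 30.5-fold for 151 to 200 bp, and 3.36 and 1.52-fold for those over 200 bp.

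**Figure D3:**
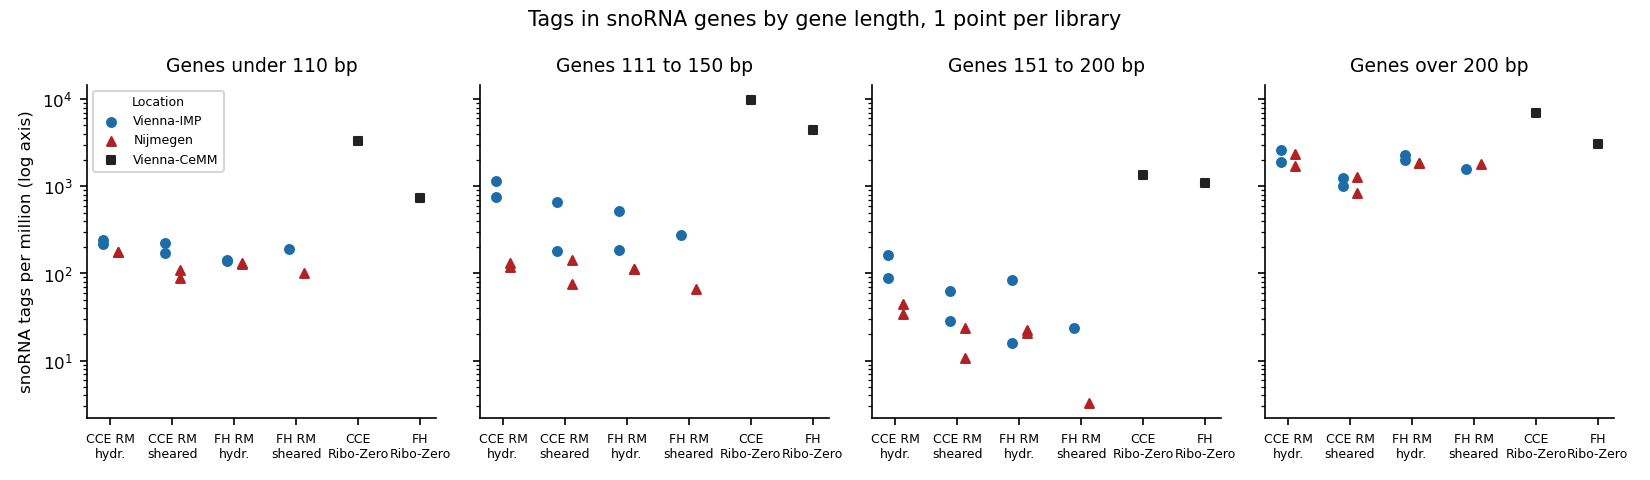
CPM in snoRNA genes (log axis) in each of 16 libraries, by gene length and by tissue, kit and fragmentation (RM, RiboMinus; hydr., hydrolysed); circles are Vienna-IMP, triangles Nijmegen and squares Vienna-CeMM. The 7 Vienna-IMP libraries lie above the 7 Nijmegen libraries for genes of 111 to 150 bp, and the locations overlap for those over 200 bp.

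The most tagged members in RiboMinus were long scaRNAs and C/D RNAs. Scarna2 (chr3:108357256-108357669, − strand, 414 bp, in no host gene), a scaRNA, was at 1009 and 943 (hydrolysed) and 820 and 511 (sheared) CPM in CCE, and at 1011 and 1145 (hydrolysed) and 1337 (sheared) in FH. The tissues overlap. In Ribo-Zero it was at 541 in CCE, below all RiboMinus preparations but CCE2 sheared, and at 496 in FH, below all 7. The next members were Scarna10 in an intron of Ncapd2, with 3170 RiboMinus tags, snoU90 in Kpna4 (2960), Scarna13 in no host gene (2946), snoU89 in Phb2 (2933), Snord17 in Snx5 (1893) and SCARNA6 in Atg16l1 (1484). SNORA73 (U17) in Rpsa had 1139, and Snord15a and Snord15b in Rps3 had 976 and 951. Flank tags were few beside the longest of them: Scarna10 had 7 and snoU90 had 3 in all RiboMinus libraries together.

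In Ribo-Zero the order was led by the RNAs of ribosome assembly. U3, which is needed for the early cuts in the pre-ribosomal RNA, was at 3209 CPM in CCE and 501 in FH, against 52.6 and 81.4 (hydrolysed) and 5.69 and 6.28 (sheared) in CCE RiboMinus. Since 24 genes are named U3 or Rnu3, only reads unique to the chromosome 10 copy are counted here. Snord22 (U22), whose gene overlaps an annotated exon of Snhg1 and which had no flank left to compare, was at 1247 and 838. Scarna10 was at 605 and 613, SNORA73 at 945 and 333, Snord17 at 696 and 469, snoU97 in Eif4g2 at 237 and 518, Snord15b at 463 and 363, Snord15a at 477 and 271, and snoU6-77 in Eif4a1 at 384 and 289. Of the 10 members with the highest Ribo-Zero means, snoU97 was higher in FH, Scarna10 was near parity (605 and 613), and the others were lower in FH.

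**Figure D4:**
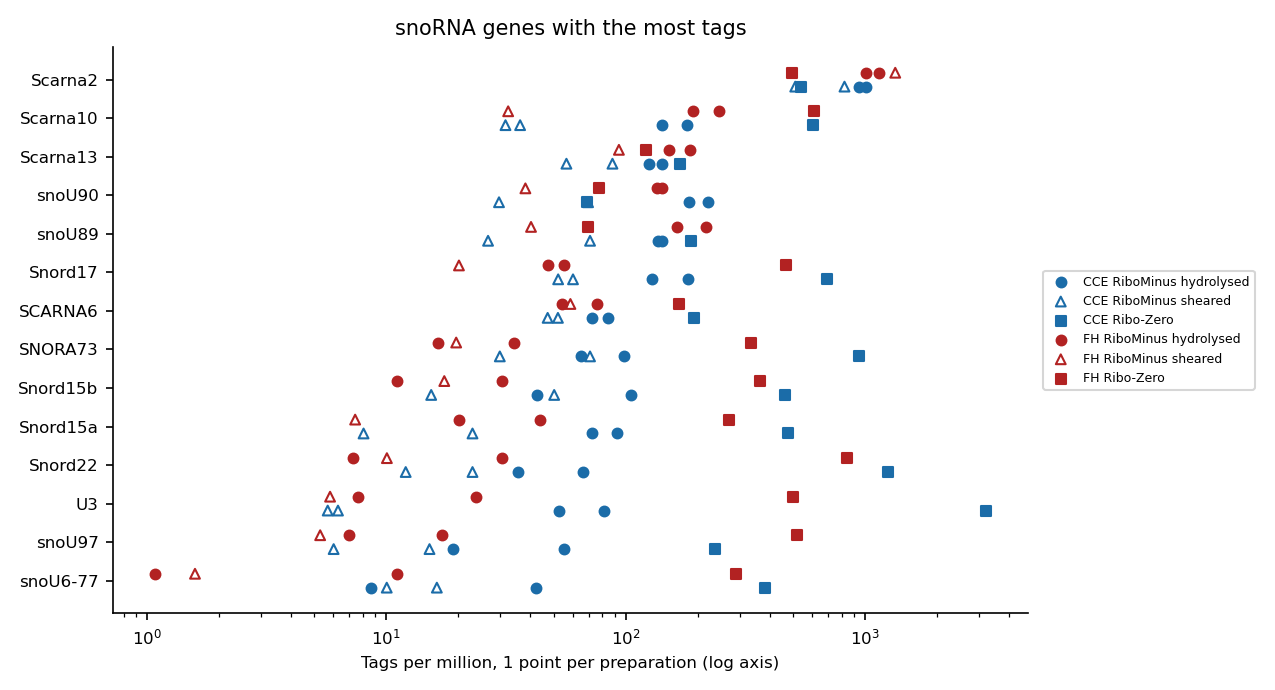
CPM (log axis) of the 14 genes that were among the 10 highest by mean in RiboMinus or in Ribo-Zero, 1 point per preparation, CCE in blue and FH in red; circles are hydrolysed and triangles sheared RiboMinus preparations and squares Ribo-Zero libraries. Scarna2 leads in RiboMinus while the CCE Ribo-Zero value of U3 (3209) is the highest point of all.

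In the comparison of the tissues in RiboMinus, fitted with limma to 16473 genes with fragmentation as covariate, 117 members reached 20 tags, and 37 of them were lower and 2 higher in FH (adjusted p under 0.05). Over all genes 38.7% were lower and 27.2% higher, so that the share of members that were lower, 31.6%, was near the background, and the share higher, 1.71%, below it. The median of the members was −0.81 on the log2 scale against −0.24 over all genes. Scaled to protein-coding exon tags, which moved the median of all genes to 0.10, 22 members were lower and 6 higher. Of the 117, 64 had under 20 tags in at least one of the tissues, so that their calls are no support for a difference. Among the 53 with 20 tags in each tissue, a choice made after the values had been seen, 23 were lower and 1 higher, 43.4 and 1.89%, where of the 12878 genes that passed in this way 43.7% were lower and 21.4% higher. The share lower was again near the background. By length, 2 of 14 such members under 110 bp and 21 of 39 over it were lower. The count of 39 fell to 18 without CCE1 hydrolysed and to 24 without FH1 hydrolysed, and rose to 51 without CCE1 sheared. It was 16 with no covariate and 9 at Nijmegen only, where 45 members were tested.

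The 5 members with the largest fitted falls were SNORA1, SNORA70 in Rg9mtd1, AC150277.1, snoU6-77 and Snord14e. All but snoU6-77 passed the filter only through CCE, with 39, 29, 25 and 33 tags there and 5, 2, 3 and 3 in FH, so no fitted change is given for them. snoU6-77 had 271 and 55 tags and changed by −2.55 on the log2 scale (adjusted p = 0.00453), but was not called without FH1 sheared (adjusted p = 0.0670). Its tags were mostly in single Vienna-IMP libraries, with 164 in CCE1 hydrolysed and 48 in FH2 hydrolysed. Each Nijmegen library held 0 to 4 of its tags. Among the higher members, SCARNA21 was at 11.0, 8.61, 6.03 and 1.48 in CCE and at 28.0, 33.5 and 11.1 in FH, with no overlap (log2 change 1.71, SE 0.37, adjusted p = 0.00118). Its excess over its flanks was 1.51-fold in RiboMinus, close to the level of the surrounding Chd3 intron. SNORD113 in Rian, from the imprinted chromosome 12 cluster, had 11 tags in CCE and 30 in FH, and passed only through FH.

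The Ribo-Zero libraries, from other RNA, gave the tissues side by side with 1 library each and no test. Of 304 members with 20 tags over both, 184 (60.5%) were lower in FH by over 2-fold and 8 were higher, where over all 19295 genes 30.0% were lower and 21.3% higher by that much. The median was −1.30 for members and −0.46 for all genes on the log2 scale. Of the 37 members called lower in RiboMinus, 36 were lower in Ribo-Zero as well, all but snoU97, which was higher in FH by 2.19-fold (95% exact binomial interval 2.13 to 2.25). The share was like that of all genes called lower (6140 of 6341), and of all 304 members 278 (91.4%) were lower in FH in Ribo-Zero. Only 23 of the 37 had 20 RiboMinus tags in each tissue, and the others passed the filter only through CCE. The 36 of 37 are thus no support for the calls. Of the 2 members called higher, SCARNA21 was 3.19-fold higher (2.78 to 3.69) and SNORD113 0.898-fold (0.680 to 1.19). These intervals cover counting error only, since tags with 1 start may be copies of 1 molecule.

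**Figure D5:**
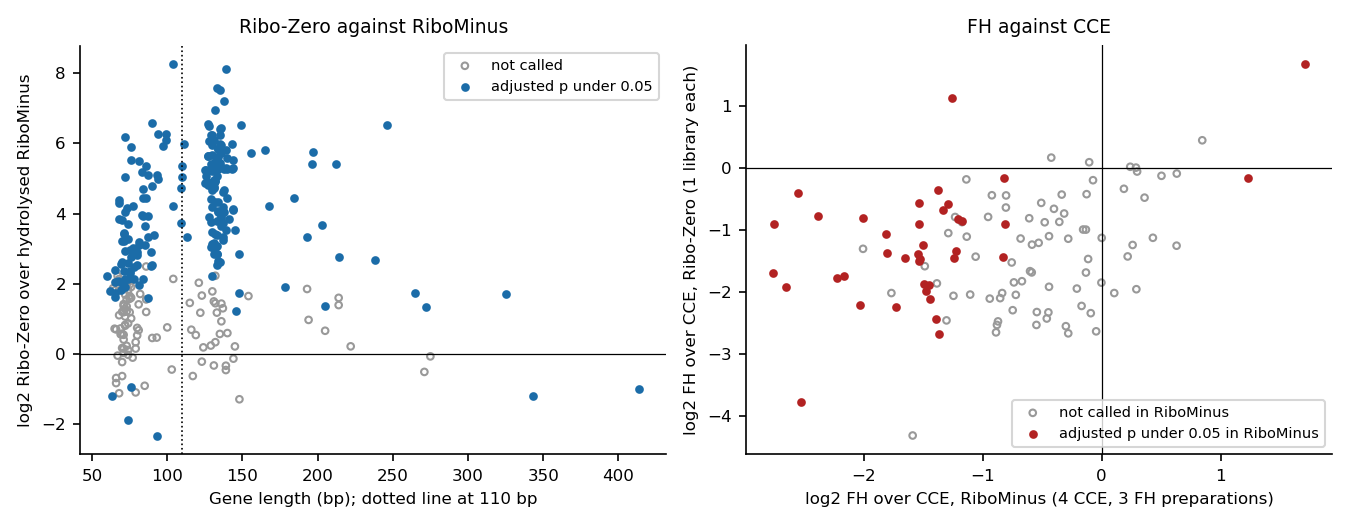
Left, log2 of Ribo-Zero over hydrolysed RiboMinus against gene length in bp for 314 members tested, with members at adjusted p under 0.05 filled and the 110 bp limit dotted. Right, log2 FH over CCE in Ribo-Zero (1 library each) against RiboMinus for 117 members, with those called in RiboMinus filled. Of the 37 members that were lower in RiboMinus 36 lie below 0 in Ribo-Zero. Of these 37, only 23 had 20 RiboMinus tags in each tissue. Among all 304 members with 20 Ribo-Zero tags 278 were lower in FH.

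The fixed groups of members differed in size of the Ribo-Zero contrast. The U3, U13 and U8 RNAs, which have promoters of their own, were far lower in FH. Scarna2 and Scarna13, in no host gene, differed less, at 541 and 169 CPM in CCE and 496 and 121 in FH. All members together were at 21599.8 CPM in CCE and 9295 in FH. The 24 U3 genes were at 3214 CPM in CCE and 504 in FH, 6.38-fold higher in CCE (6.29 to 6.47). The chromosome 10 copy held 84549 of their 84679 CCE tags and 23151 of their 23294 FH tags, so this is the value of 1 gene. The U13 genes, which with U3 are C/D RNAs of ribosome assembly, were at 638 and 32.8, 19.4-fold higher (18.4 to 20.5), 16804 of 16813 CCE tags being in Snord13. U8, needed for the large subunit, with Snord118, was at 107 and 27.8, 3.84-fold higher (3.59 to 4.11). Members inside genes of ribosomal proteins were at 4979 and 1804 (57 genes, 2.76-fold, 2.74 to 2.78), members inside Snhg host genes at 2431 and 1222 (23 genes, 1.99-fold), members inside Gas5 at 111 and 38.1 (9 genes, 2.92-fold), members inside Eef or Eif genes at 1895 and 1218 (17 genes, 1.56-fold), and the U14, U17 and U22 genes at 2588 and 1214 (21 genes, 2.13-fold). The 39 genes with scaRNA names were nearest to parity, at 2280 and 1886 (1.21-fold, 1.196 to 1.22). Of their 87185 FH tags, 28347 were in Scarna10 and 22912 in Scarna2. Outside this group by name were snoU89 (187 in CCE and 69.7 in FH) and snoU90 (69.0 and 77.5). In the RiboMinus fit, among members with 20 tags in each tissue, 7 of 7 in Snhg genes, 6 of 11 in genes of ribosomal proteins, 2 of 3 in Eef or Eif genes and 4 of 4 of U14, U17 and U22 were lower in FH, where 43.7% of all genes that passed in this way were lower, while of 12 scaRNA genes 1 was lower and 1 higher. These counts are small, and the groups share members, as Snord22 (U22) lies in Snhg1. The call of Snord22 was lost without CCE1 hydrolysed or FH1 hydrolysed. When scaled to protein-coding exon tags its limma adjusted p was 0.0654. U3 itself fell in FH by 1.37 on the log2 scale (adjusted p = 0.0170), a call lost without CCE2 hydrolysed or FH2 hydrolysed, when scaled to protein-coding exon tags (adjusted p = 0.0625) and at Nijmegen only (0.0518).

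The imprinted clusters were counted in the same way. The 23 members inside Rian, Meg3 or Mirg or named SNORD113 or SNORD114 had 29.9 CPM in CCE and 24.0 in FH Ribo-Zero (FH over CCE 0.803, 0.732 to 0.881). In RiboMinus they were at 12.0, 9.80, 3.35 and 9.24 in CCE and 19.4, 12.96 and 7.41 in FH. The Snrpn to Ube3a region of chromosome 7, whose snoRNAs are known from brain, holds 166 members, but unique 36-nt tags reach only 15.8% of their sequence. All 137 SNORD115 copies together had 0 tags in CCE Ribo-Zero and 41 in FH, and SNORD116 had 0 and 11. Against a floor of 3 tags in CCE these were 7.79 and 2.09-fold. The lower limits of the 95% exact binomial intervals were 6.05 and 1.43-fold. These limits are for the FH tags against the 0 tags counted in CCE, not against the floor. Of the 137 SNORD115 copies, 10 had any Ribo-Zero tag and 1 reached 20. Snord64 of the same region had 25 and 56 (1.28-fold, 0.784 to 2.14).

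Fragmentation was compared with tissue as covariate. Of 117 members 29 were higher and 11 lower in hydrolysed preparations, 24.8 and 9.40%, near the 21.3 and 14.6% over all genes. Of the 117, 66 had under 20 tags in at least one of the groups. Among the 51 with 20 tags in each, a choice made after the values had been seen, 17 were higher and 3 lower, 33.3 and 5.88%, where of the 13363 genes that passed in this way 23.3% were higher and 17.5% lower. By length, 2 of 12 such members under 110 bp were higher and 2 lower, and 15 of 39 over it were higher and 1 lower. With the 3 RNAs that went through both methods as a block, 32 members were called, and with no tissue covariate 0 were called by limma, with 28 at an unadjusted p under 0.05. Against 40 in all, the count was 23 without FH1 sheared, 21 with repeated positions counted once, 21 at Vienna-IMP only and 18 at Nijmegen only.

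snoZ40, a C/D RNA in an intron of Taf1d, was at 19.3, 22.3, 9.42 and 15.3 CPM in CCE1, CCE2, FH1 and FH2 hydrolysed and at 2.01, 0.739 and 1.59 in CCE1, CCE2 and FH1 sheared. It has 11 sheared tags and passed the filter only through the hydrolysed preparations, so no fitted change is given. U3 was at 52.6, 81.4, 23.7 and 7.64 against 5.69, 6.28 and 5.82 (log2 change 2.51, SE 0.45, adjusted p = 0.00128), and at Vienna-IMP alone the adjusted p was 0.0629. Scarna10 was at 142, 181, 246 and 192 against 31.5, 36.2 and 32.3 (2.44, SE 0.16, adjusted p = 7.95e-06). SNORD12 in 1500012F01Rik and Snora16a in Snhg12, with 53 and 58 hydrolysed tags, had 6 and 7 in the sheared preparations. The members with the largest fitted falls were Snord13, SNORD88, SNORD45 in Rabggtb and Snord21 in Rpl5, with 18, 5, 6 and 8 hydrolysed tags and 42, 15, 16 and 16 sheared ones, and none of them had 20 tags in each group. SNORD45 had 0.849 times the tag density of its flanks in RiboMinus, and snoZ40 2.76 times.

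Ribo-Zero against hydrolysed RiboMinus gave the most calls. With tissue as covariate, 206 of 314 members were higher and 6 lower in Ribo-Zero, 65.6 and 1.91%, where over all 19763 genes 16.3% were higher and 25.0% lower. Of the 314, 224 had under 20 tags in the hydrolysed RiboMinus preparations and passed the filter only with the Ribo-Zero tags, so that their counts are no support for a difference. With no filter on tags, 607 members were fitted, and 215 were higher and 173 lower, with a median of 0.10 on the log2 scale. The values of members with few or no tags depend on library depth and on the 0.5 tags added to each count. The 173 lower calls are thus no support for a difference. Among the 90 members with 20 tags in hydrolysed RiboMinus alone, a choice made after the values had been seen, 66 were higher and 6 lower, where of the 15715 genes that passed in this way 18.1% were higher and 30.6% lower. By length, 13 of 29 such members under 110 bp were higher and 4 lower, and 53 of 61 over it were higher and 2 lower. Location, sequencer, read length, mismatches allowed, hydrolysis time, range of fragment sizes and RNA changed with the kit, and these cannot be told apart. With tags of 1 start and strand counted once 114 members were called, 98 higher and 16 lower, and with no covariate 94. Counted once, 16 members that were called had the opposite sign, and 5 of them were called lower: Scarna10, SCARNA6, Scarna6, Snord17 and Snord104. Counted so, a gene holds at most 1 tag per position and strand. Snord17 (238 bp) had 18339 (CCE) and 21683 (FH) Ribo-Zero tags. This cap and library depth can turn the sign, which is thus no support for a difference.

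Some members with many Ribo-Zero tags had few in RiboMinus. Snord13 had 16, 0, 2 and 0 tags in CCE1, CCE2, FH1 and FH2 hydrolysed and 16804 (CCE) and 1481 (FH) in Ribo-Zero. SNORA4 had 3, 4, 0 and 2 against 7850 and 3645. SNORA1 had 26, 5, 0 and 5 against 10518 and 5713, Snord118 had 4, 0, 0 and 1 against 2809 and 1281, and Snora34 had 8, 0, 1 and 2 against 2796 and 2527. All but SNORA1 passed the filter only with the Ribo-Zero tags, and fitted changes of such genes depend on the pseudocount of 0.5 tags, so none is given. The 6 members lower in Ribo-Zero were snoU83B (−2.32), snoZ40 (−1.87), AC087117.2 (−1.20), snoU90 (−1.20), Scarna2 (−0.98) and snoU2_19 (−0.93). snoZ40 was at 5.58 and 3.35 CPM in Ribo-Zero and snoU83B at 0.569 and 0.324. Among them AC087117.2 was lost in each of 6 fits that left out 1 library, and snoU2_19 in 4 of them.

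The genes that work with snoRNAs were read by their own exons. The proteins of the mature particles were lower in FH: fibrillarin (Fbl), the methyltransferase of C/D RNAs, was at 11.9 ± 3.60 RPKM (SD, n = 4 preparations) in CCE and 4.09 ± 2.53 (n = 3 preparations) in FH (log2 change −1.52, SE 0.33, limma adjusted p = 0.00142). Dyskerin (Dkc1), the pseudouridine synthase of H/ACA RNAs, was at 7.11 ± 3.26 and 1.86 ± 0.748 (−2.06, SE 0.18, adjusted p = 5.9e-07). In all, 7 of the 8 core proteins were tested and 7 were lower, with changes of −0.84 (Nop10) to −2.16 (Gar1), and Nhp2l1 did not reach 20 tags. Of 11 assembly factors 8 were lower and 0 higher, among them Nolc1, a nucleolar chaperone (−1.46), and Ruvbl2 (−1.25), while Ruvbl1, Znhit6 and Rpap3 did not pass. Of 17 host genes, 14 were tested: 9 were lower, among them Snhg5 (−1.89) and Hspa8 (−1.16), and 2 were higher, Meg3 (0.66) and Snrpn (1.00). Exon tags of host genes include those of members that overlap their exons, as Snord22 does in Snhg1. These lists were chosen with earlier results of the data known, and 38.7% of all genes tested were lower.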

How the data were processed

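The deposited BED files list 1 unique tag per line and hold no other measurement used here; the authors removed ribosomal tags (and mitochondrial tags in RiboMinus), aligned the rest to mm9 with Bowtie, allowed a few mismatches, kept tags with a single match and did not map splice junctions. Each deposited line was counted once, by the midpoint of the tag, per library and per preparation, with both locations summed. Deposited coordinates were shifted by location to a common first base: by 0 (plus start) and −1 (minus end) at Vienna-IMP and by 1 and −2 at Nijmegen, as found from positions shared with the CCE Ribo-Zero library. Positions that a 36-nt or 51-nt read reaches uniquely were found in the mm9 genome without mismatches. Not analysed here are 6 samples of extra lanes and 2 that combine others. The sheared libraries are taken from the fragmentation label, although the protocol text of those samples describes hydrolysis.

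Differences between groups were tested with limma 3.58.1 (R 4.3.3) on log2 of CPM with 0.5 tags added, over all genes outside the mitochondrial chromosome with at least 20 tags, with Benjamini-Hochberg adjustment and a threshold of 0.05. Single values were tested with exact permutation and sign-flip tests, two-sided, in Python 3.11.15 with scipy 1.17.1. The fits and tests were checked on simulated data. Named members are the 10 with the most tags CPM in each kit, the 5 called members with the largest change each way in each comparison, and members of groups fixed by name or host gene. A member that this rule names is not reported here. Members and lists were chosen with earlier results of these data known. The CCE preparation numbers come from the study's table of libraries. The log ratios of hydrolysed preparation 1 to 2 correlated between the locations at −0.642 in CCE (8031 genes) and −0.498 in FH (8035 genes), and at 0.629 in sheared CCE (6642 genes). The tags of 1 preparation may thus come from both cDNAs.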

Additional observations from a re-analysis of the deposited data

Results flagged for a closer look

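Of 51 groups of 4 libraries examined, 3 held a library far from the other 3. Chance flags about 1 in 20 where the 4 libraries are alike, but each group joined 2 preparations at 2 locations. In hydrolysed FH RiboMinus, FH2 at Vienna-IMP was at 84.5 CPM (tags per 1000000) for genes of 151 to 200 bp, the highest of its group. In sheared CCE RiboMinus, CCE2 at Vienna-IMP was at 100.1 CPM for Snord15b and at 45.1 for Snord15a, each the highest of its group.

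With both locations summed, hydrolysis against shearing moved the tags of genes under 110 bp in opposite directions in the RNAs of the tissues. The log2 ratio was 0.44 in CCE1 and 0.42 in CCE2, and −0.12 in FH1. In FH1 the locations went apart, with 193 CPM sheared and 144 hydrolysed at Vienna-IMP, and 102 and 128 at Nijmegen. At Nijmegen FH1 thus rose with hydrolysis, as CCE1 and CCE2 did. The difference between the tissues was not tested, as FH has 1 RNA with both methods.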

How the results depend on the processing

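The excess of snoRNA genes over flanks and over the host intron, and over the excess of miRNA genes, kept its direction and its side of the threshold in every alternative run. Leaving out 1 preparation gave 4.01 to 4.13 (flanks), 2.98 to 3.11 (host intron), −3.41 to −3.21 (under against over 110 bp) and 1.39 to 1.55 (against miRNA genes) on the log2 scale. Counting repeated positions once moved the first 3 to 2.66, 2.10 and −1.87. Leaving out Scarna2 moved the first to 3.23. Leaving out the most tagged member of each length class moved the contrast of lengths to −2.32. By name classes in place of length the difference between the classes turned to 0.40. Results with no call changed sign: CPM by tissue (main 0.10) went to −0.37 with repeated positions counted once, −0.035 at Vienna-IMP only, −0.29 without Scarna2, −0.085 (without CCE2 sheared) to 0.28 (without CCE1 hydrolysed) over preparations left out, with −0.042 without CCE1 sheared. CPM by fragmentation (0.67) went to −0.027 with repeated positions counted once, with 0.57 to 0.80 when 1 preparation was left out and 0.68 with the 3 RNAs as a replicate block (exact p = 0.25, the smallest possible). The excess by fragmentation (−0.20) went to 0.15 without Scarna2 and −0.62 with repeated positions counted once (exact p = 0.0571, the smallest possible), with −0.31 to −0.02 over preparations left out. The excess by tissue (0.11) went to −0.17 with repeated positions counted once and −0.28 without Scarna2, with −0.10 to 0.27 over preparations left out. The share at gene ends against flank edges (−4.04 points) lost its call with repeated positions counted once (−1.83), at Nijmegen only (−2.52) and without Scarna2 (−1.63), and was −4.61 to −2.94 over preparations left out. As the flank edge value is not a like share, no conclusion on gene ends is drawn from it. By fragmentation the share at gene ends differed by 0.84 to 1.59 points over preparations left out, 0.40 at Vienna-IMP only, 2.54 at Nijmegen only and 0.47 without members that overlap an exon. The cause was not tested in these cases.

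Calls by tissue (39) were 16 without covariate, 24 among members with 20 tags in each tissue (chosen after seeing the data), 9 at Nijmegen only (45 members tested), and 18 (without CCE1 hydrolysed) to 51 without 1 preparation, with 24 without FH1 hydrolysed. Calls by fragmentation (40) were 21 with repeated positions counted once, 0 without covariate (28 at an unadjusted p under 0.05), 21 at Vienna-IMP only, 18 at Nijmegen only, 20 among members with 20 tags in each group (chosen after seeing the data) and 23 (without FH1 sheared) to 40 without 1 preparation, and 32 in the replicate block. Calls by depletion (212) were 388 with no filter (173 of them lower, against 6), 114 with repeated positions counted once, 94 without covariate, 72 among members with 20 tags in hydrolysed RiboMinus alone (chosen after seeing the data) and 175 to 214 without 1 library. With the numbers of hydrolysed libraries crossed between locations, chosen after seeing the data, 34, 34 and 206 members were called. Members with few RiboMinus tags limit the tissue and fragmentation fits. In the depletion fit with no filter, the values of members with few or no tags depend on the pseudocount and on library depth. The 173 lower calls of that fit are thus no support for a difference.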
